A study of Mus musculus with 28 samples.

Results

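The cytosolic ribosomal protein genes were taken by name from the deposited gene tables: protein-coding genes whose symbol is Rpl or Rps followed by a digit or an a, without the Rps6k kinases, names marked as pseudogenes and names holding "like". The rule kept 84 of 45318 genes, 50 with a symbol starting Rpl and 34 with one starting Rps. One of them, Rps19bp1, encodes an Rps19-binding protein and not a ribosome subunit, and Rplp0, Rplp1, Rplp2, Fau and Rack1 are among the ribosomal proteins that fall outside the names and are given apart. Rpl6l is a processed pseudogene in the annotation of the 3-day tables and a protein-coding gene in that of the 21-day tables.

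RNA from the left ventricular wall, away from the infarct (the remote zone), was sequenced in 28 libraries of male Hsd:ICR(CD-1) mice, an outbred stock. Mice underwent ligation of the left anterior descending coronary artery (MI) or a sham operation at postnatal day 7 or 1 and were followed for 3 or 21 days. The 8 groups are 7d-MI + 3, 7d-SHAM + 3, 1d-MI + 3 and 1d-SHAM + 3 with 4 libraries each, and 7d-MI + 21, 7d-SHAM + 21, 1d-MI + 21 and 1d-SHAM + 21 with 3 each. The design asks how the infarcted ventricle differs between pups operated before and after the heart loses its capacity to regenerate. Both follow-ups used total RNA, with different library kits and sequencers, so the follow-ups were fitted apart. No difference in level between them was tested. Where levels of both are given, follow-up, kit and sequencer cannot be told apart. The labels name no transgene or deletion and no pooling of animals.

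Each ribosome subunit is built from ribosomal RNA and a fixed set of small proteins, the Rps proteins in the small (40S) and the Rpl proteins in the large (60S) subunit. Most of their mRNAs in vertebrates start with a cytosine followed by a run of pyrimidines, the 5′ terminal oligopyrimidine (TOP) tract, through which mTORC1 and the RNA-binding protein Larp1 set their translation together. A few members have a second gene, such as Rpl3l, a paralog of Rpl3 that is expressed in heart and skeletal muscle, and Rpl22l1, a paralog of Rpl22.

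The annotated start sites of the members the results turn on are shown because the TOP tract is the element the family shares. A start window of 30 bases, 15 before and 15 from the annotated first base, was available for 64 of the 84 members (RefSeq, GRCm38.p6). A run of at least 5 bases, each C or T on the sense strand, covering the first base or the next, was present in 24 of the 64 windows (37.5%) and in 2359 of 16522 windows of protein-coding genes (14.3%). An annotated start can lie some bases away from the used one, and a match or its lack describes these letters only. In the windows below, 5′ to 3′, capitals mark the pyrimidine run at the start, of any length. Rpl35a, Rpl28, Rpl7a and Rps18 were higher in 7d-MI + 3 than in 1d-MI + 3 hearts and hold a long run, Rps2, Rpl6, Rps4x and Rpl26 were higher and hold none of 5 bases, and Rpl22l1, Rps27l and Rpl3l were lower in at least one comparison.
Rpl35a (chr16:33056467-33056496, plus strand): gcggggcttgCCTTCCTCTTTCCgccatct
Rpl28 (chr7:4792950-4792979, plus strand): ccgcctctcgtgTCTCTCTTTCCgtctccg
Rpl7a (chr2:26910792-26910821, plus strand): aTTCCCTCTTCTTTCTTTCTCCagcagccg
Rps18 (chr17:33955651-33955680, minus strand): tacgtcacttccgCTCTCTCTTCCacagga
Rps2 (chr17:24720048-24720077, plus strand): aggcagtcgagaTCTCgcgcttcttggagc
Rpl6 (chr5:121204486-121204515, plus strand): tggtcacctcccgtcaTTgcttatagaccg
Rps4x (chrX:102189377-102189406, minus strand): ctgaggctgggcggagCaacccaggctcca
Rpl26 (chr11:68901551-68901580, plus strand): ctcgcggcaacttacagaaccggaagtcgc
Rpl22l1 (chr3:28805493-28805522, plus strand): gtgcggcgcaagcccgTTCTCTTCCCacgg
Rps27l (chr9:66946071-66946100, plus strand): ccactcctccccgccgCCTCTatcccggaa
Rpl3l (chr17:24727811-24727840, plus strand): gagtgttctagctctgTCatttgacctctg

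The members shared other features that the name rule did not use. They lay on 19 chromosomes, and 29 of 84 (34.5%) held at least one small nucleolar RNA gene inside their span, against 279 of 21951 protein-coding genes (1.27%). Their coding lengths ran between 138 and 1257 bases. A median of 18.4% of the 75-base words in their transcripts also occurred in transcripts of other genes, and in 8 members this share was over 50%, so how the authors' counting placed such reads affects their level. Rpl3l shared no word with any other gene. Rps2 and Rpl3l lie on the same strand of chromosome 17 with 5890 bases between them.

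The library totals were 33077962 to 51942648 counts at 3 days and 40514177 to 168550985 at 21 days. The members took 0.689 to 1.46% of the counts at 3 days and 0.235 to 1.40% at 21 days. Levels below are CPM (counts relative to the library total) scaled by TMM, the trimmed mean of log ratios between libraries, within each follow-up. The ribosomal RNA share counts loci annotated as ribosomal RNA together with the rows Gm42418, AY036118, Gm15564 and Lars2, taken as holding ribosomal RNA repeats. Lars2 is a protein-coding gene, and its part in the share was not tested. This share was 0.0219 to 0.196% of a library at 3 days, highest in 7d-MI + 3 (0.0926 to 0.196%). At 21 days it was 0.524 to 78.0%, and 3 libraries exceeded 50%. The 7 cardiomyocyte markers examined were counted in all groups and summed to 12822 to 30563 CPM at 3 days. In 1d-SHAM + 3, replicates 1 and 2 share one title prefix and replicates 3 and 4 another, and the members' scaled levels differed between these pairs. Their summed level was 9738 and 8629 CPM in replicates 1 and 2, against 12520 and 12335 CPM in replicates 3 and 4. Of the unscaled counts the members took 1.13 and 0.937% in the first pair and 1.16 and 0.955% in the second. The mitochondrial genome took 38.7 and 46.3% of the counts in the first pair and 51.7 and 59.3% in the second. It took 54.9 to 61.0% in 7d-SHAM + 3, 40.3 to 43.3% in 7d-MI + 3 and 37.2 to 47.9% in 1d-MI + 3. The part of this share in the scaled levels was not tested. What the prefix stands for is not stated. No prefix occurs in more than one group, so prefix and group cannot be told apart between groups, and the member calls that rest on 1d-SHAM + 3 are also given with each pair alone. The 7d-SHAM + 3 libraries all share a single prefix, so calls against this group cannot be checked in that way. In 7d-MI + 3, replicate 3 summed to 7904 CPM, against 11248 to 11797 CPM in the other replicates. In 7d-SHAM + 3 the sums were 10237 to 11073 CPM, and in 1d-MI + 3 they were 7622 to 10843 CPM.

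**Figure D1:**
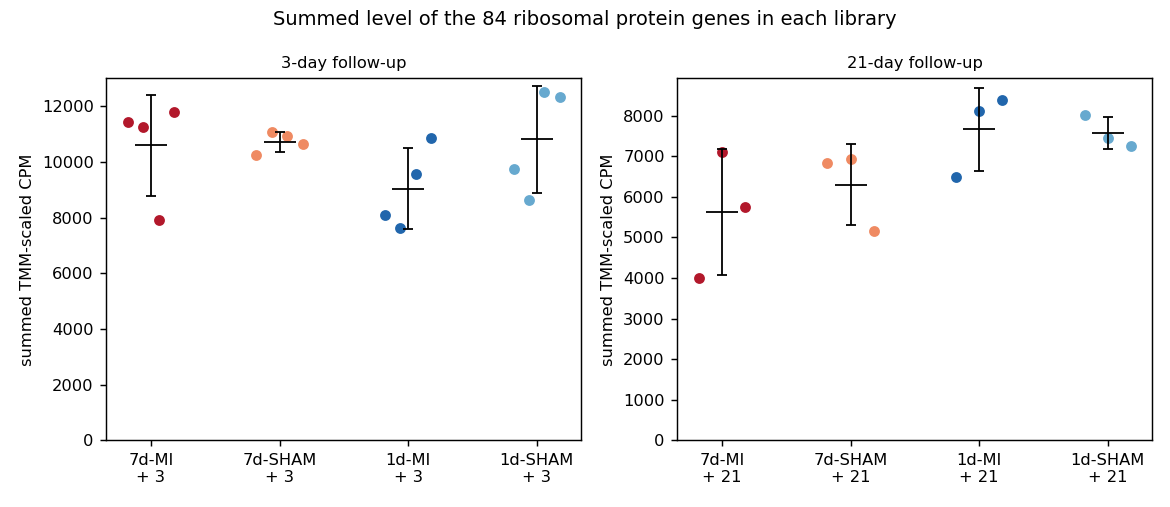
Summed TMM-scaled CPM of the 84 ribosomal protein genes in each library at 3 days (left) and 21 days (right). Points are libraries, and the bar and whiskers are the mean and SD (n = 4 per group at 3 days, n = 3 at 21 days). The 1d-SHAM + 3 libraries lie in 2 pairs, at 8629 and 9738 CPM and at 12335 and 12520 CPM.

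Levels per kilobase of the gene length in the tables spanned a wide range. The order of the highest members differed between the follow-ups, which also differ in library kit, sequencer and scaling. The levels of the 2 follow-ups below therefore do not show a change with time. At 3 days they were Rpl17, Rps12, Rpl4, Rps24 and Rpl32, and at 21 days Rps13, Rps26, Rps27, Rps24 and Rps23. Rpl17 averaged 783 CPM per kilobase at 3 days and 188 at 21 days, and Rps12 averaged 593 and 133. Library by library, Rpl17 had 483 to 995 CPM per kilobase in the 3-day libraries and 92.2 to 250 in the 21-day libraries. Rps12 had 451 to 788 at 3 days and Rpl4, next in this order, had 398 to 570, so the ranges of these neighbours overlapped. Rps26, which is not among the 5 named for 3 days, had 215 to 509. The median member averaged 52.5 CPM per kilobase at 3 days and 37.1 at 21 days. By the mean over the 28 libraries the lowest were Rpl10l, Rpl39l, Rpl6l, Rpl22l1 and Rps27rt. Rpl10l and Rpl39l, both known in mouse as testis paralogs, had a median of 0 over the 3-day libraries and were not tested there, and Rpl10l was not tested at 21 days. Rpl22l1 was low but counted in every library, with 2.29 to 5.31 CPM per kilobase at 3 days. Over the 16 libraries at 3 days the median correlation (Pearson's r, log2 CPM) of a member with the sum of the other members was 0.79 over 82 members, and over the 12 libraries at 21 days it was 0.57 over 83 members. These correlations share the libraries' depth and scaling and are given as a description.

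The main infarct comparison at 3 days, 7d-MI + 3 against 1d-MI + 3, had the most members called. Its hearts also differ in postnatal age, so age and the response to MI cannot be told apart in it. Rpl35a, Rps2 and Rpl22l1 were also called between the sham hearts of these ages, in the same directions, as given below. Of 82 members tested, 22 were higher in 7d-MI + 3 and 1 was lower at an adjusted p under 0.05 (edgeR quasi-likelihood test, Benjamini-Hochberg adjustment over 20345 genes). That is 26.8% of the members called higher, against 19.4% of all genes tested, and 28.0% called in either direction, against 43.0% of all genes. The members' median log2 fold change was 0.28, with 64 of 82 above 0, and the median over all genes tested was -0.13. The 22 higher members differed by 1.36- to 2.88-fold, with a median of 1.59-fold. Of 48 members with a symbol starting Rpl 13 were called, and of 34 starting Rps, Rps19bp1 included, 10 were. The split between higher and lower calls moved with the scaling and the filter. With upper-quartile scaling 10 members were higher and 7 lower, and with the stricter filter 15 were higher and 6 lower. Over all genes 45.2 and 45.6% were called in these fits.

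Rpl35a, a protein of the large subunit mutated in some patients with Diamond-Blackfan anemia, had 41.1, 43.6, 30.3 and 42.7 CPM in 7d-MI + 3 and 19.0, 18.5, 21.1 and 26.7 CPM in 1d-MI + 3. The groups did not overlap, and Rpl35a was higher in 7d-MI + 3 (log2 fold change 0.89, SE 0.18, adjusted p = 0.0006, edgeR). It was the one member whose call held in all 20 alternative fits of this comparison.
Rps2, the uS5 protein of the small subunit, had 181, 217, 180 and 203 CPM in 7d-MI + 3 and 83.2, 92.6, 117 and 130 CPM in 1d-MI + 3. It was higher in 7d-MI + 3 without overlap (log2 fold change 0.88, SE 0.20, adjusted p = 0.0015, edgeR).
Rpl6, a large-subunit protein, had 76.8, 73.9, 58.3 and 79.6 CPM in 7d-MI + 3 and 42.8, 36.7, 49.9 and 54.9 CPM in 1d-MI + 3, again without overlap. It was higher in 7d-MI + 3 by 0.65 on the log2 scale (SE 0.15, adjusted p = 0.0026, edgeR).
Rpl10, the late-joining protein of the 60S subunit, had 85.4, 104, 57.0 and 98.1 CPM in 7d-MI + 3 and 36.7, 40.7, 39.2 and 64.9 CPM in 1d-MI + 3. The groups overlapped at one library of each, and the difference was 0.92 on the log2 scale (SE 0.22, adjusted p = 0.0026, edgeR).

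Among the remaining higher members, Rpl13, Rpl8 and Rpl28 changed most, by 0.88, 0.86 and 0.80 on the log2 scale. Rps19, the gene most often mutated in Diamond-Blackfan anemia, rose by 0.74, and Rpl10a by 0.68. Rpl26 had the largest fitted change, at 1.53 (SE 0.55, adjusted p = 0.039, edgeR), and is described apart below because its libraries fell into separate levels. The others included Rpl37a, Rpl7a, Rps4x, Rpl18, Rps9, Rps18, Rps26, Rpl3 and Rps15. Of 20 alternative fits, 14 did not call Rps15, 12 did not call Rpl3 and 11 did not call Rps26. For Rps18 and Rps9 the call was lost in 7 and 6 fits, and for Rpl37a, Rpl7a, Rps4x and Rpl18 in 1 to 3. Several members with functions beyond the ribosome were not called. Rpl5 and Rpl11, which with 5S ribosomal RNA bind Mdm2, had log2 fold changes of -0.03 and 0.07. Rps6, the substrate of the S6 kinases, had 0.11, and Rps27a, which encodes a fusion of ubiquitin and a ribosomal protein, had -0.07. Rpl38 and Rps25, studied for roles in translating selected mRNAs, had -0.08 and 0.20, and Rpl13a had 0.20. Rpsa, the laminin receptor precursor, had 0.73 with an adjusted p of 0.054 (edgeR).

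Rpl22l1 was the one member called lower. It had 6.72, 7.00, 5.64 and 5.88 CPM in 7d-MI + 3 and 7.02, 8.22, 10.6 and 9.65 CPM in 1d-MI + 3, so every 7d-MI + 3 library lay below every 1d-MI + 3 library. It differed by -0.49 on the log2 scale (SE 0.16, adjusted p = 0.018, edgeR), a call that 7 of 20 alternative fits did not make. Its paralog Rpl22 had -0.21 (SE 0.15, adjusted p = 0.26, edgeR).

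**Figure D2:**
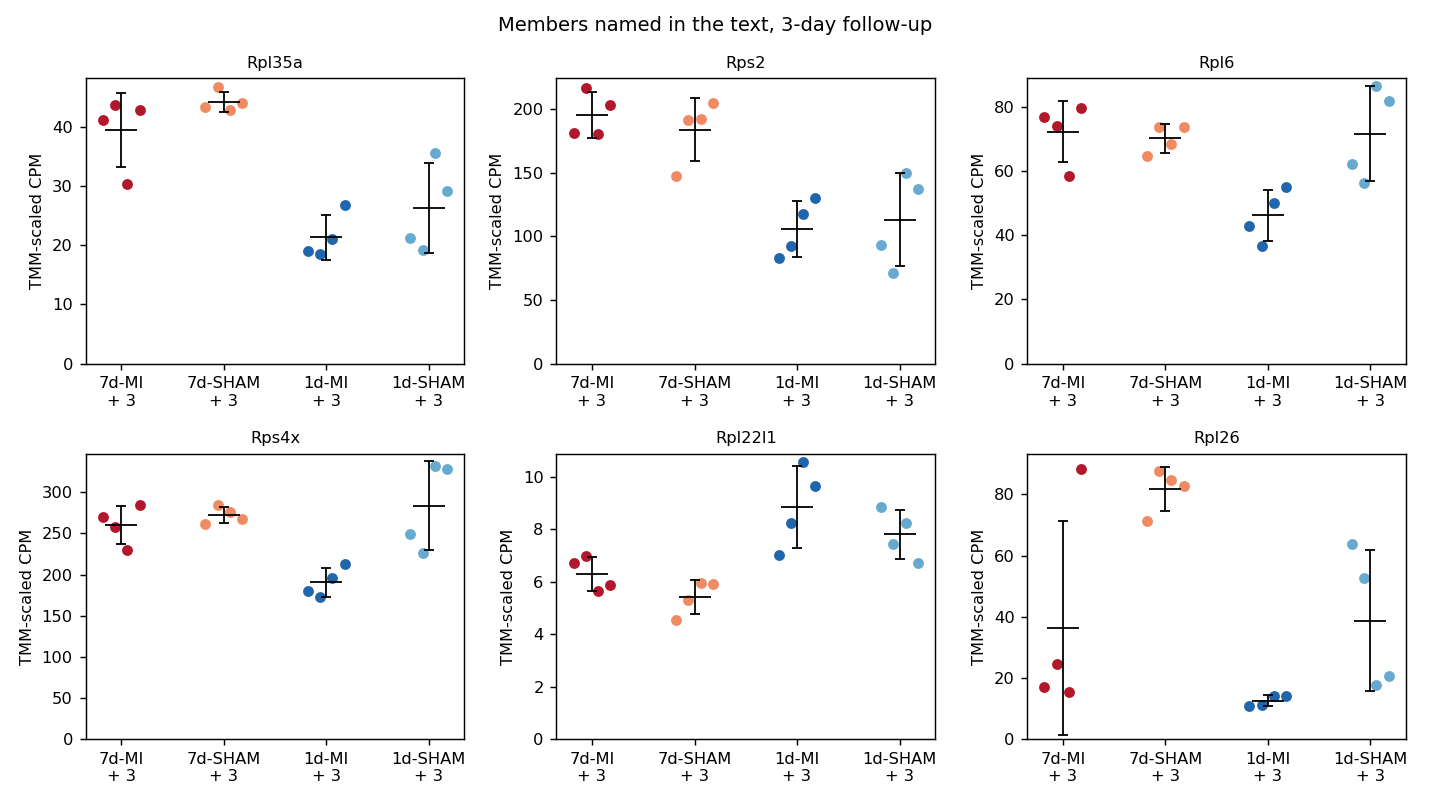
TMM-scaled CPM of 6 members in each 3-day library, with the mean and SD of each group (n = 4). Rpl35a, Rps2 and Rpl6 were higher in 7d-MI + 3 than in 1d-MI + 3 without overlap, Rpl22l1 was lower without overlap, and Rpl26 lay at 2 levels within groups.

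Members were called in this comparison both with and without a pyrimidine run at the start, and no test of the difference was made. Among members with a pyrimidine run of 5 bases, 6 of 24 tested were higher and 1 was lower, with a median log2 fold change of 0.15. Among those without one, 11 of 38 were higher, with a median of 0.27.

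With the share of ribosomal RNA in a library (log2) as a covariate 1 member, Rpl35a, remained called, while calls over all genes were 2371 of 20345 (11.7%, against 43.0% without the covariate), and the members' median log2 fold change was 0.37. The share was higher in every 7d-MI + 3 library (0.0926 to 0.196%) than in every 1d-MI + 3 library (0.0431 to 0.0744%), so this share and the group cannot be told apart. Without replicate 2 of 1d-MI + 3 the count was 14 (35.4% of all genes called), and without replicate 3 of 7d-MI + 3 it was 32 (39.7% of all genes). Upper-quartile scaling brought the members' median to 0.04. The median over all genes is not given for this fit or for the covariate fit. A change of scaling moves the fold changes of all genes, so 0.04 alone does not place the members against all genes.

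The ribosomal proteins outside the name rule and the translation factors were also more often higher than lower in 7d-MI + 3 against 1d-MI + 3. Of all 20345 genes tested here 3956 were higher (19.4%) and 4789 lower, 43.0% in either direction. No difference between a list and all genes was tested. Of 6 such ribosomal proteins 4 were higher and 0 lower, among them the stalk protein Rplp2 with a log2 fold change of 1.09 and Fau with 0.66. Of 24 translation factors and other genes with TOP mRNAs, 10 were higher and 2 lower, led by the poly(A)-binding protein Pabpc1 with 1.11 and the initiation factor subunit Eif3f with 1.13. Of 36 ribosome biogenesis genes 12 were higher and 1 lower. Utp20, a processing factor of the small subunit, rose by 1.04, and Taf1d, a subunit of the RNA polymerase I selectivity factor, fell by 1.17. Of 16 growth regulators of ribosome synthesis 8 were higher and 3 lower, with Myc, a transcription factor that drives ribosome biogenesis, at 1.29 and Larp1 at 0.84. The mitochondrial ribosomal proteins, which build the separate ribosome of the mitochondrion, ran the other way: 3 of 76 were higher and 31 lower, with a median log2 fold change of -0.32.

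Markers of other cell types differed in the same comparison. All 7 macrophage and leukocyte markers were higher in 7d-MI + 3 than in 1d-MI + 3 (summed level 198 to 412 CPM against 51.1 to 147 CPM), and all 6 fibroblast markers were (4199 to 4973 CPM against 1179 to 2012 CPM). Of 7 cardiomyocyte markers 2 were higher and 3 lower, with a summed level of 14807 to 24702 CPM in 7d-MI + 3 and 12822 to 18282 CPM in 1d-MI + 3. No marker of these 3 lists was at 0 in a whole group. Their part in the members' difference was not tested, and in bulk RNA fewer cells of a type and less RNA per cell cannot be told apart.

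**Figure D3:**
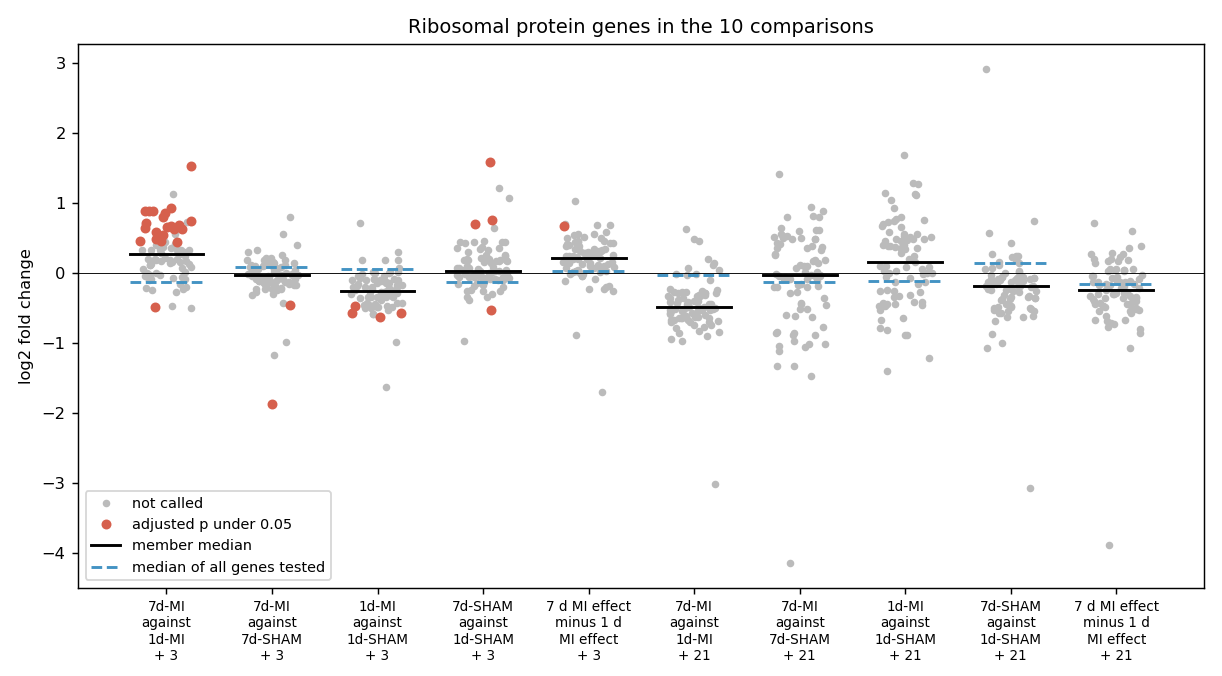
Log2 fold changes of the members in the 5 comparisons at 3 days (left, 82 members) and at 21 days (right, 83 members). Each point is a gene, red where the adjusted p was under 0.05. Black lines are the members' medians and dashed blue lines the medians of all genes tested. Members lay above the median of all genes in 7d-MI + 3 against 1d-MI + 3 and below it in 7d-MI + 21 against 1d-MI + 21.

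MI at 7 days, compared with the sham operation at the same age, changed few members at 3 days. In 7d-MI + 3 against 7d-SHAM + 3, 2 of 82 members were called, both lower (2.44%, against 34.0% of all genes tested). The members' median log2 fold change was -0.04, with 33 of 82 above 0, and the median over all genes was 0.08. The members' median absolute log2 fold change was 0.13, against 0.54 over all genes tested.

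Rpl3l carried the largest difference. It had 12.9, 7.31, 16.7 and 7.14 CPM in 7d-MI + 3, against 41.9, 38.5, 35.5 and 44.2 CPM in 7d-SHAM + 3. The groups lay far apart. It differed by -1.86 on the log2 scale (SE 0.33, adjusted p = 0.00038, edgeR), and it was called in 19 of 20 alternative fits. The exception was the fit with the ribosomal RNA share as a covariate, where it was -2.14 with an adjusted p of 0.059. Rpl3, the paralog made in all cells, had 129, 138, 129 and 147 CPM in 7d-MI + 3 and 99.2, 111, 119 and 110 CPM in 7d-SHAM + 3. These groups did not overlap either, but the difference of 0.30 on the log2 scale (SE 0.17, adjusted p = 0.19, edgeR) was not called.
Per kilobase, Rpl3l was at 19.0, 10.1, 24.5 and 9.24% of the level of Rpl3 in 7d-MI + 3, and at 80.2, 65.6, 56.8 and 76.3% in 7d-SHAM + 3. In 1d-MI + 3 this share was 19.98, 8.75, 19.2 and 6.07%, and in 1d-SHAM + 3 it was 22.1, 28.6, 16.3 and 29.5%. The share in the 7-day sham hearts thus stood apart from all the other 3-day groups. All 7d-SHAM + 3 libraries share a single title prefix, so prefix and group cannot be told apart here.

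Cardiomyocyte markers moved with Rpl3l. Of the 7 markers (Myh6, Tnnt2, Tnni3, Actc1, Ryr2, Pln and Myl2), 5 were lower and 0 higher in 7d-MI + 3 against 7d-SHAM + 3, with a median log2 fold change of -0.71 and a summed level of 14807 to 24702 CPM, against 29132 to 30563 CPM. Per 1000 CPM of these markers, Rpl3l had 0.764, 0.494, 0.675 and 0.437 CPM in 7d-MI + 3 and 1.44, 1.27, 1.22 and 1.45 CPM in 7d-SHAM + 3. This ratio was lower in every 7d-MI + 3 library than in every 7d-SHAM + 3 library. Level per cell can change for the markers too, so the ratio does not measure Rpl3l per cardiomyocyte. All 7 macrophage and leukocyte markers and 6 of 7 proliferation markers were higher in 7d-MI + 3. Their part in the difference was not tested.

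Rps27l, a p53-inducible paralog of Rps27 in human cells, had 68.8, 60.8, 38.7 and 66.5 CPM in 7d-MI + 3, against 81.8, 87.0, 82.0 and 70.0 CPM in 7d-SHAM + 3. It was lower in 7d-MI + 3 (log2 fold change -0.45, SE 0.16, adjusted p = 0.038, edgeR). The groups did not overlap, but the call was lost when replicate 1, 2 or 3 of 7d-SHAM + 3 or replicate 2 or 3 of 7d-MI + 3 was left out (-0.29, adjusted p = 0.16, edgeR, without the last). It was also lost with the title prefix as a random block (limma-voom) and without a filter. With the ribosomal RNA share as covariate the sign turned to 0.30. Rps27 itself had -0.23 (adjusted p = 0.32, edgeR). The next smallest p among the members was that of Rps12, with 0.40 (adjusted p = 0.072, edgeR).

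Other lists had these counts in the same comparison, in which 34.0% of all genes tested were called, and no difference between lists was tested. Ribosome biogenesis genes were higher in 12 of 36 and lower in 1, with Utp20 at 0.88, Rrp12 at 1.12 and Nop10, a protein of H/ACA small nucleolar ribonucleoproteins, at -0.90. Myc had a log2 fold change of 2.42 and Larp1 of 0.98. Translation factors were higher in 5 of 24 and lower in 4, Pabpc1 rising by 1.41 while the initiation factor subunit Eif3m fell by 0.60. Of the mitochondrial ribosomal proteins 53 of 76 were lower and 2 higher, with a median log2 fold change of -0.55.

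**Figure D4:**
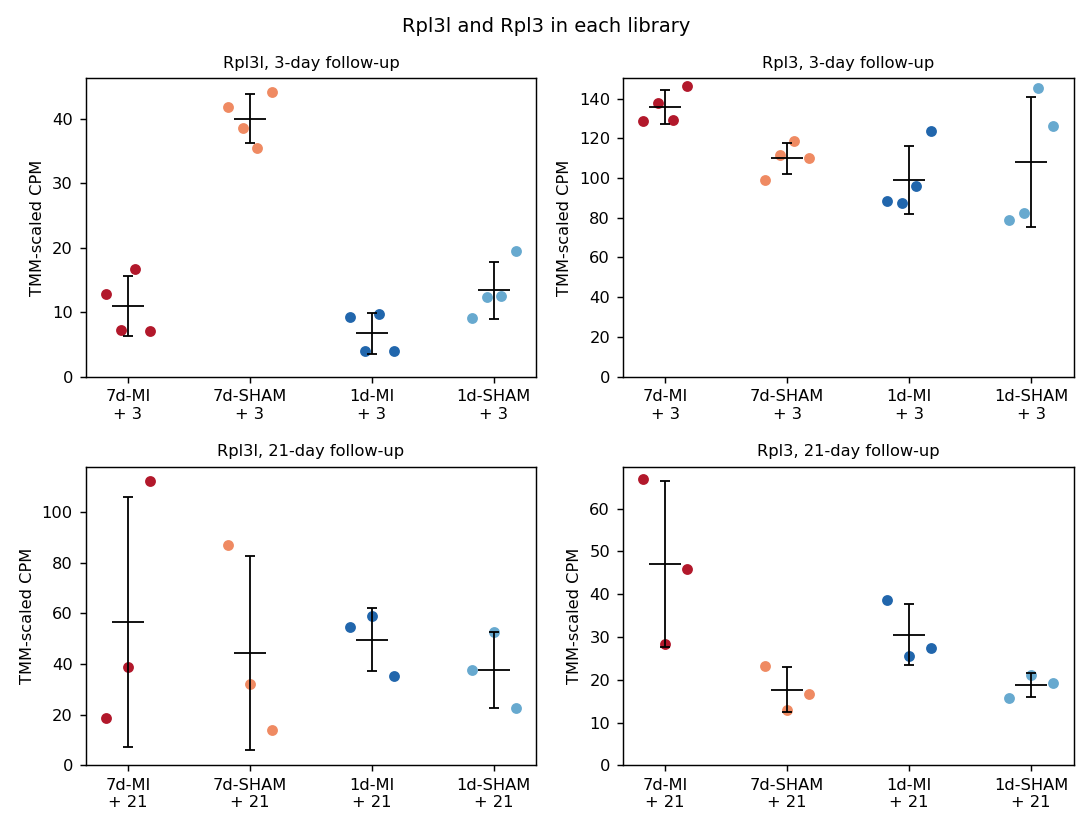
TMM-scaled CPM of Rpl3l (left) and Rpl3 (right) in each library at 3 days (top) and 21 days (bottom), with the mean and SD of each group (n = 4 at 3 days, n = 3 at 21 days). At 3 days Rpl3l was at 35.5 to 44.2 CPM in 7d-SHAM + 3 and at most 19.6 CPM in the other groups, while at 21 days the groups overlapped.

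MI at 1 day gave members that were mostly lower than in the sham hearts. In 1d-MI + 3 against 1d-SHAM + 3, 4 of 82 members were lower and 0 higher (4.88%, against 4.36% of all genes tested called lower and 8.46% called in either direction). The median log2 fold change was -0.26, with 73 of 82 members below 0, and the median over all genes was 0.06.
Rps4x, the X-linked small-subunit protein, had 180, 173, 196 and 213 CPM in 1d-MI + 3, against 249, 226, 332 and 328 CPM in 1d-SHAM + 3. It was lower without overlap (log2 fold change -0.57, SE 0.14, adjusted p = 0.015, edgeR).
Rpl6 had 42.8, 36.7, 49.9 and 54.9 CPM in 1d-MI + 3, against 62.2, 56.1, 86.3 and 81.7 CPM in 1d-SHAM + 3. It differed by -0.63 on the log2 scale (SE 0.15, adjusted p = 0.018, edgeR), also without overlap.
Rpl7l1, a nucleolar relative of Rpl7, fell by 0.57 on the log2 scale (SE 0.15, adjusted p = 0.025, edgeR), while Rpl7 had -0.35 (adjusted p = 0.14). Rpl30 fell by 0.47 (SE 0.15, adjusted p = 0.049, edgeR), a call that 15 of 22 alternative fits did not make. Rpl3l had 9.30, 4.04, 9.69 and 3.96 CPM in 1d-MI + 3, against 9.18, 12.4, 12.4 and 19.6 CPM in 1d-SHAM + 3, and its difference of -0.99 on the log2 scale (SE 0.33, adjusted p = 0.072, edgeR) was not called.

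This comparison depended on which sham mice were used. Against replicates 1 and 2 of 1d-SHAM + 3 alone, 0 members were called (1.74% of all genes) and the members' median was 0.02. Against replicates 3 and 4 alone, 35 of 83 members were called, all lower (42.2%, against 23.1% of all genes), with a median of -0.45. Rps4x was at -0.33 (adjusted p = 0.27, edgeR) with the first pair and -0.79 (adjusted p = 0.0012, edgeR) with the second. Rpl6 was at -0.37 and -0.86 (adjusted p = 0.26 and 0.0014, edgeR), Rpl7l1 at -0.42 and -0.71 (adjusted p = 0.20 and 0.0061, edgeR), and Rpl30 at -0.16 and -0.73 (adjusted p = 0.61 and 0.0021, edgeR). All 4 were called with the second pair and none with the first. Leaving out replicate 2 of 1d-SHAM + 3 gave 14 called members, and leaving out replicate 3 or 4 of 1d-SHAM + 3, or replicate 1 or 2 of 1d-MI + 3, gave 0. Over all genes 14.6% were called in the first of these fits and 3.05 to 3.45% in those that gave 0. The fit with title prefix as a random block (limma-voom) also gave 0 called members (1.27% of all genes). Macrophage and leukocyte markers were higher in 5 of 7 in 1d-MI + 3 (51.1 to 147 CPM, against 25.2 to 36.1 CPM), and of the cardiomyocyte markers 1 of 7 was lower. Their part was not tested. Translation factors had 0 of 24 higher and 2 lower, Eif3f at -0.67 and Eif3k at -0.84, and Myc was higher with 0.62. With the first sham pair 0 of these factors were called, and with the second 1 was higher and 13 lower, while Myc was at 0.80 and 0.45 (adjusted p = 0.061 and 0.13, edgeR).

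Between the sham hearts, 7d-SHAM + 3 against 1d-SHAM + 3 compares hearts of 2 postnatal ages. Of 82 members 3 were higher and 1 lower (4.88%, against 20.3% of all genes tested). The median was 0.03, with 46 of 82 above 0, and the median over all genes was -0.13. Rpl3l had 41.9, 38.5, 35.5 and 44.2 CPM in 7d-SHAM + 3, against 9.18, 12.4, 12.4 and 19.6 CPM in 1d-SHAM + 3. Its difference of 1.58 on the log2 scale (SE 0.33, adjusted p = 0.0036, edgeR) was the largest called among the members. Cardiomyocyte markers were higher in 5 of 7 (29132 to 30563 CPM, against 17736 to 21866 CPM), and Rpl3l per 1000 CPM of them was 1.22 to 1.45 CPM in 7d-SHAM + 3 and 0.490 to 0.895 CPM in 1d-SHAM + 3. All 7 proliferation markers were lower (166 to 320 CPM, against 473 to 1049 CPM), and 5 of 6 fibroblast, 4 of 7 macrophage and leukocyte and 4 of 6 erythroid markers were higher. Their part in the members' differences was not tested.
Rpl35a had 43.3, 46.7, 42.7 and 44.0 CPM in 7d-SHAM + 3, against 21.2, 19.1, 35.5 and 29.1 CPM in 1d-SHAM + 3. It was higher without overlap by 0.75 (SE 0.17, adjusted p = 0.0054, edgeR). Rps2 was higher by 0.70 (SE 0.19, adjusted p = 0.017, edgeR). Rpl22l1 had 4.55, 5.32, 5.94 and 5.92 CPM in 7d-SHAM + 3, against 8.86, 7.42, 8.24 and 6.73 CPM in 1d-SHAM + 3, and fell by 0.52 on the log2 scale (SE 0.16, adjusted p = 0.029, edgeR).
The calls of Rpl3l and Rpl35a were lost in 1 of 22 alternative fits each, that of Rps2 in 6 and that of Rpl22l1 in 12. Against replicates 1 and 2 of 1d-SHAM + 3 alone 31 of 83 members were called, all higher (37.3%, against 30.1% of all genes), with a median of 0.37. Against replicates 3 and 4 alone 0 were called (6.23% of all genes), with a median of -0.21. With the first and the second pair, Rpl3l was at 1.95 and 1.33 (adjusted p = 0.010 and 0.14, edgeR), Rpl35a at 1.19 and 0.45 (adjusted p = 4.2e-05 and 0.16, edgeR) and Rps2 at 1.21 and 0.36 (adjusted p = 0.00011 and 0.32, edgeR). Rpl22l1 was at -0.53 and -0.46 (adjusted p = 0.056 and 0.22, edgeR). Without replicate 4 of 1d-SHAM + 3, 9 members were called, and leaving out replicate 4 of 7d-SHAM + 3 gave 2, as did leaving out the first or the second 1d-SHAM + 3 replicate. Over all genes 23.2% were called in the first of these fits and 10.8 to 11.5% in those that gave 2.

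The difference between the MI effects, that of MI at 7 days minus that of MI at 1 day, was called for 1 of 82 members (1.22%, against 13.1% of all genes tested). This was Rpl6, with 0.68 (SE 0.22, adjusted p = 0.044, edgeR). Its MI effect at 1 day was -0.63, given above, and 20 of 29 alternative fits did not call the difference. The members' median was 0.22, with 69 of 82 above 0, against a median of 0.03 over all genes. With upper-quartile scaling the members' median was -0.01, and the median over all genes is not given for that fit. With replicates 1 and 2 of 1d-SHAM + 3 alone the members' median was -0.05 with 0 members called (11.5% of all genes). With replicates 3 and 4 alone it was 0.45 with 17 of 83 called (20.5%, against 13.4% of all genes). Rpl6 was at 0.42 (adjusted p = 0.27, edgeR) with the first pair and 0.92 (adjusted p = 0.0074, edgeR) with the second. Rps4x had 0.51 (adjusted p = 0.081, edgeR). Rpl3l had -0.88 (SE 0.46, adjusted p = 0.23, edgeR), so its lower level after MI was not shown to differ between the ages. For Myc the difference was 1.80 (adjusted p = 0.00033, edgeR), and for Pabpc1 1.12 (adjusted p = 0.0020, edgeR). With each sham pair alone both were called, Myc at 1.63 and 2.00 and Pabpc1 at 1.35 and 0.89. Ribosome biogenesis genes had 7 of 36 with a positive called difference and 0 with a negative one, and the same counts with each pair.

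Rpl26, a large-subunit protein that binds the 5′ region of p53 mRNA in human cells, lay at separate levels within groups. It had 17.2, 24.5, 15.5 and 88.4 CPM in 7d-MI + 3 and 71.4, 87.6, 84.8 and 82.7 CPM in 7d-SHAM + 3. In 1d-MI + 3 it had 10.9, 11.2, 14.3 and 14.1 CPM, and in 1d-SHAM + 3 63.9, 52.7, 17.7 and 20.7 CPM. The levels in 1d-SHAM + 3 followed the title prefix, whereas replicates 3 and 4 of 7d-MI + 3, which share a prefix, had 15.5 and 88.4 CPM. At 21 days it had 80.0 CPM in replicate 3 of 1d-MI + 21, 103 CPM in replicate 2 of 1d-SHAM + 21, and 2.92 to 5.98 CPM elsewhere. Without replicate 4 of 7d-MI + 3 the log2 fold change in 7d-MI + 3 against 1d-MI + 3 was 0.61 with an adjusted p of 0.20 (edgeR). In 7d-MI + 3 against 7d-SHAM + 3 it was -1.17 (adjusted p = 0.12), and without that library -2.09 (adjusted p = 0.0009, edgeR). Of its 75-base words 17.1% occurred in transcripts of other genes.

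By their pattern over the 16 libraries at 3 days, the members most like Rpl3l were Rpl26, Rps29 and Rpl35a (Pearson's r of log2 CPM 0.62, 0.59 and 0.58), and the member most opposed to it was Rpl22l1 (-0.72). These are descriptions over libraries that differ in group and title prefix.

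At 21 days no member was called in any of the 5 comparisons, and few genes were called at all. In 7d-MI + 21 against 1d-MI + 21, 0 of 83 members were called and 2 had an unadjusted p under 0.05, while 8 of 24646 genes were called (0.0325%). The members' median log2 fold change was -0.49, with 75 of 83 below 0, and the median over all genes was -0.02. The smallest p were those of Rpl27, Rpl26 and Rps3, with log2 fold changes of -0.84, -3.004 and -0.86 (adjusted p = 0.74, 0.75 and 0.79, edgeR). Rpl27 had 49.6, 133 and 84.4 CPM in 7d-MI + 21 and 120, 164 and 193 CPM in 1d-MI + 21, so the groups overlapped. Replicate 1 of 7d-MI + 21 was the lowest library of all in summed level, at 4008 CPM, against 5744 and 7113 CPM in the other replicates of its group and 6495 to 8383 CPM in 1d-MI + 21. Without it the median was -0.24. Mitochondrial ribosomal proteins had a median of -0.56 in the same comparison, with 0 of 76 called. DESeq2 and limma-voom also called 0 members here, with 208 and 15 genes.

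In 7d-MI + 21 against 7d-SHAM + 21, 0 of 83 members were called, 7 with an unadjusted p under 0.05, and 0 genes were called in all (0%), with 4111 at an unadjusted p under 0.05. DESeq2 called 2 members and 1028 genes, and limma-voom 0 members and 14 genes. Rpl3 had the smallest p, with 67, 28.4 and 45.9 CPM in 7d-MI + 21 and 23.3, 13.1 and 16.6 CPM in 7d-SHAM + 21. The groups did not overlap, and the difference was 1.41 on the log2 scale (SE 0.36, adjusted p = 0.17, edgeR). Rpl23 and Rps27 followed with -1.48 and -1.33 (adjusted p = 0.23 and 0.25, edgeR). Rpl3l had 18.5, 38.9 and 112 CPM in 7d-MI + 21 and 87.1, 32.0 and 13.8 CPM in 7d-SHAM + 21, an overlap over nearly the whole range, with 0.35 (SE 0.63, adjusted p = 0.79, edgeR). Without replicate 1 of 7d-SHAM + 21, 25 of 83 members (30.1%) and 5903 of 27303 genes (21.6%) were called.

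In 1d-MI + 21 against 1d-SHAM + 21, 0 members were called, 7 with an unadjusted p under 0.05, and 4 genes were called in all (0.0162%). DESeq2 called 0 members and 328 genes, and limma-voom 0 members and 1 gene. The median was 0.16. Rpsa had 283, 234 and 194 CPM in 1d-MI + 21 and 75.7, 86.5 and 60.3 CPM in 1d-SHAM + 21, with 1.68 (SE 0.59, adjusted p = 0.29, edgeR), the smallest p, and Rpl7l1 had 1.13 (adjusted p = 0.29, edgeR). In 7d-SHAM + 21 against 1d-SHAM + 21, 0 members and 0 genes (0%) were called, 442 genes and 1 member had an unadjusted p under 0.05, DESeq2 and limma-voom called 0 members and 0 genes, and the median was -0.18. The smallest p were those of Rpl26, Rpl13a and Rps27rt, with -3.06, -0.9965 and -1.08. For the difference between the MI effects at 21 days 0 members and 0 genes (0%) were called, 927 genes and 0 members had an unadjusted p under 0.05, and DESeq2 and limma-voom called 0 members, with 44 and 0 genes. The median was -0.24, and Rpl3 and Rpl39l, among the members of smallest p, had 0.71 and -3.88. Rpl39l was at or near 0 in most of these libraries.

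The relation of coding length to the members' fold changes varied among the comparisons. In 7d-MI + 21 against 7d-SHAM + 21, members with coding sequences under 456 bases had a median log2 fold change of -0.51 (6 of 41 above 0), and longer ones one of 0.36 (33 of 41 above 0). Spearman's rho of fold change with coding length was 0.75 over the 82 tested members that have one, and in 1d-MI + 21 against 1d-SHAM + 21 it was 0.69. It was 0.41 in 7d-MI + 21 against 1d-MI + 21, 0.26 between the shams and 0.13 for the difference between the MI effects at 21 days. At 3 days, over 81 members, the same rho was 0.06 in 7d-MI + 3 against 7d-SHAM + 3 and 0.37 in 7d-MI + 3 against 1d-MI + 3, but -0.52 in 1d-MI + 3 against 1d-SHAM + 3, with -0.04 between the shams and 0.46 for the difference between the MI effects. The summed level of the shorter members over that of the longer ones was 0.667 to 1.32 in 7d-MI + 21, 0.962 to 2.88 in 7d-SHAM + 21, 0.822 to 1.25 in 1d-MI + 21 and 1.28 to 2.75 in 1d-SHAM + 21, and 0.552 to 0.676 over all 3-day libraries. Rpl39, one of the shortest, had 45.1, 244 and 63.5 CPM in 7d-MI + 21 and 123, 380 and 149 CPM in 7d-SHAM + 21. These libraries differed in ribosomal RNA share by up to the range given above, and the part of library composition in the length pattern was not tested.

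**Figure D5:**
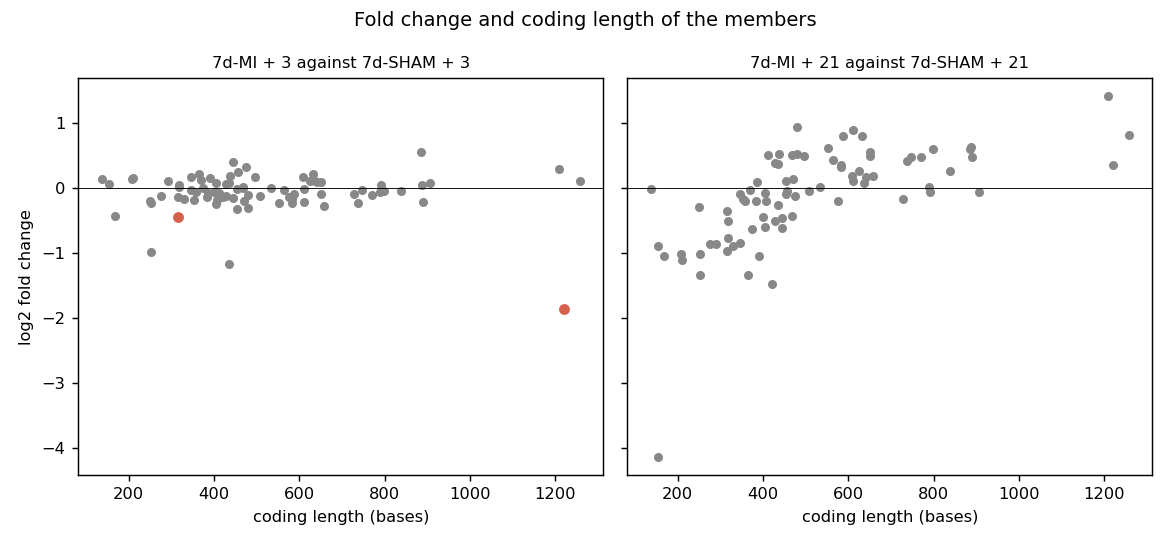
Log2 fold change of each member against its coding length in bases, for 7d-MI + 3 against 7d-SHAM + 3 (left) and 7d-MI + 21 against 7d-SHAM + 21 (right). Red points had an adjusted p under 0.05. Spearman's rho was 0.06 at 3 days and 0.75 at 21 days, and the lowest point on the left is Rpl3l at -1.86.

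The pairs Rpl36a and Rpl36al, Rpl39 and Rpl39l, and Rps27 and Rps27rt gave no call at either follow-up. Rpl36a and Rpl36al had 0.02 and 0.05 in 7d-MI + 3 against 7d-SHAM + 3. Rpl39 had 0.07, while its testis paralog Rpl39l was at 0 in most libraries. Rps27rt, a copy of Rps27, had at most 0.706 CPM in the 3-day libraries and up to 4.67 CPM at 21 days, and 90.3% of its words occurred in other genes, so its level is uncertain.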

How the data were processed

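Left ventricular RNA was measured in 28 libraries of 8 groups. The authors mapped reads to GRCm38 (per the labels with TopHat2 2.0.11, Bowtie2 2.2.2 and Cufflinks 2.2.1) and deposited, per library, gene counts, CPM, RPKM and log2 values. For the counter, strand setting and filters: not given in the sources used here. Only the deposited counts were tested. The deposited CPM equalled count over library total, the RPKM gave gene length, and the log2 values were not used. For 2 libraries deposited as 2 lanes the lanes were summed.

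Genes passing filterByExpr (minimum count 10, total 15) were fitted apart at each follow-up with edgeR 4.0.16 (TMM, robust quasi-likelihood, R 4.3.3), over all groups of that follow-up, and p-values were adjusted by Benjamini-Hochberg over all genes tested (20345 and 24646). Each SE was derived from the fold change and its F statistic (absolute log2 value over root F). Biological coefficients of variation came to 0.331 (3 days) and 0.567 (21 days). At 33077962 to 168550985 counts a library, spread between mice and not counting error limits most members. Each library is taken as 1 mouse, although the labels do not say so, and p-values measure the spread between libraries.

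Genes named were the paralog pairs, up to 8 members per direction with the largest called change in each comparison (the 3 smallest p where fewer than 3 were called), the 5 highest and lowest mean levels over all libraries (the highest are given by follow-up, a choice made after their values were seen), and a set of 12 members with known roles. Of the other lists, up to 3 genes of smallest p were named. The members and lists were chosen with earlier results of these data known. Start windows came from RefSeq, and shared words and coding lengths from GENCODE M21. Alternatives were other scalings and filters, DESeq2 1.42.0, limma-voom 3.58.1, 2 groups alone, a ribosomal RNA covariate, blocks, added pseudogene counts and leaving out each library. The procedure was tested on simulated data. Some genes the naming rule selects are not reported here.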

Additional observations from a re-analysis of the deposited data

Results flagged for a closer look

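In groups of 4 libraries, 12 of 192 sets of named members and summed levels had 1 library far from the other 3 (6.25%, where chance gives about 1 in 20). Of these, 6 concern the same library, replicate 3 of 7d-MI + 3: the summed members (7904 CPM, others 11248 to 11797), Rpl5 (130 CPM, others 195 to 199), Rps26 (124, others 213 to 227), Rps25 (116, others 172 to 179), Rpl36al (26.1, others 38.9 to 41.0) and Rpl30 (78.8, others 87.5 to 88.4). A further 3 concern replicate 1 of 7d-SHAM + 3, the lowest in Rpl7a (202 CPM, others 251 to 260), Rps27 (46.8, others 52.6 to 53.6) and Rps3 (152, others 186 to 191). Rpl10 was high in replicate 4 of 1d-MI + 3 (64.9 CPM, others 36.7 to 40.7), Rpl36a low in replicate 2 of 1d-SHAM + 3 (102 CPM, others 112 to 113), and Rpl26 high in replicate 4 of 7d-MI + 3 (88.4 CPM, others 15.5 to 24.5). Rpl6 had an MI effect that differed between the operation ages at 3 days by 0.68 on the log2 scale (adjusted p = 0.044, edgeR), a call lost in 20 of 29 alternatives.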

How the results depend on the processing

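The calls at 3 days depended on the fit. The share of all genes called moved with the fit as well and is given after each count. For 7d-MI + 3 against 1d-MI + 3 the count of called members (23) fell to 1 with the ribosomal RNA share as covariate, and ranged between 14 and 32 when 1 library was left out. Over all genes the shares were 43.0%, 11.7% and 35.4 to 43.7%. For 7d-MI + 3 against 7d-SHAM + 3 (2) the count was 5 with the 2 groups alone and 0 with the covariate, and 1 to 3 with a library left out. Over all genes the shares were 34.0%, 48.0%, 9.59% and 25.5 to 28.6%. For 1d-MI + 3 against 1d-SHAM + 3 (4, with 8.46% of all genes) the count was 2 with upper-quartile scaling (6.95%), 16 without a filter (7.34%) and 7 with DESeq2 (13.7%). It was 0 with the 2 groups alone, the covariate, the title prefix as random block and replicates 1 and 2 of 1d-SHAM + 3 alone (0.290 to 1.74% of all genes). With replicates 3 and 4 alone it was 35 (23.1%), and with a library left out 0 to 14 (3.05 to 15.1%). For 7d-SHAM + 3 against 1d-SHAM + 3 (4, with 20.3% of all genes) it was 2 with the covariate (9.4%) and with the prefix block (5.96%). It was 31 with replicates 1 and 2 of 1d-SHAM + 3 alone (30.1%) and 0 with replicates 3 and 4 alone (6.23%). With a library left out it was 2 to 9 (10.8 to 23.2%). For the difference between the MI effects the count was 1 (13.1% of all genes). It was 0 with RLE scaling, upper-quartile scaling, TMM without the 20 most abundant genes, protein-coding genes only and the stricter filter. It was also 0 with limma-voom, the covariate, the prefix block and the first 1d-SHAM + 3 pair (4.17 to 21.3% of all genes over all these fits). It was 17 with the second pair (13.4%), 5 without a filter (7.35%), 2 with DESeq2 (17.3%), and 0 to 5 with a library left out (8.25 to 13.0%). These comparisons of sham pairs and the fit without 3 libraries were chosen after seeing the data. The cause of these shifts was not tested.

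At 21 days all counts were 0. Alternatives gave 1 (no filter) and 2 (DESeq2) for 7d-MI + 21 against 7d-SHAM + 21, where leaving out a library gave 0 to 25, and 2 (2 groups alone) for 1d-MI + 21 against 1d-SHAM + 21. Over all genes the shares called were 0.921%, 4.17%, 0 to 21.6% and 2.91%. With the title number as a replicate block the counts stayed at 0. The numbers did not pair the mice: 7 of 15 same-numbered pairs had deviations correlated over 0.1, and 2 of 11 libraries were closest to their own number. No paired analysis was possible at 3 days because the titles carry no replicate numbers, and a title prefix block could not be fitted at 21 days because each group has 1 prefix. Without the 3 libraries of highest ribosomal RNA share all counts were 0. Signs turned for Rpl3l in 7d-MI + 21 against 7d-SHAM + 21 (-0.030 without those 3 libraries, -0.62 to 1.35 with a library left out), Rpl26 in 7d-SHAM + 21 against 1d-SHAM + 21 (0.070 without those 3), Rpl39l in the difference at 21 days (1.31 with limma-voom) and Rps27l in 7d-MI + 3 against 7d-SHAM + 3 (0.30 with the covariate). Upper-quartile scaling moved the median of the members in 1d-MI + 21 against 1d-SHAM + 21 to -0.14. The median over all genes is not given for that fit.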
